A study of Homo sapiens with 6 samples.

Results

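The 10 genes described here are the human mitochondrial-genome coding genes MT-CO1, MT-CO2, MT-CO3, MT-CYB, MT-ATP6, MT-ND1, MT-ND2, MT-ND3, MT-ND4 and MT-ND5. They were chosen by name, as the human transcripts that GENCODE assigns to these symbols, out of 12472 human genes matched in the count matrices. Each has 1 annotated transcript, and all 10 transcripts were listed in every one of the 5 matrices. The study mixed a human and a mouse cell line, named JJN3 and 5TGMG1 in the labels and described there as myeloma lines, and sequenced barcoded cDNA as long nanopore reads. JJN3 is an established human plasma cell leukaemia line. The 2 libraries made on the 10X Chromium droplet system were labelled as 2000 cells and went through 30 or 35 cycles of PCR, and the 3 Drop-seq libraries, made on barcoded beads, went through 25 cycles (labelled 1000 cells) or 30 or 35 cycles (labelled 500 cells). No sample was treated with a drug; cycle number and capture platform were the variables, and every group was 1 library. The question the cycle comparison addresses is whether PCR cycles alter the number of molecules counted by unique molecular identifiers (UMIs), the random tags that mark each captured molecule.

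Mitochondria keep a small circular genome that is transcribed from both strands into long RNAs, which are cut at the transfer RNAs between the genes. The resulting mRNAs have almost no untranslated sequence and receive short poly(A) tails, which in several genes complete the stop codon. All of the proteins they encode sit in the inner membrane as core subunits of the oxidative phosphorylation machinery, which is otherwise built from nuclear-encoded subunits. In single-cell RNA data their share of the counts is widely used as a measure of cell quality, and it also differs between cell types.

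The members lie one after another along chrM in the hg38 build, all annotated on the + strand and all as single protein-coding exons. MT-ND1 spans chrM:3307-4262 and MT-ND2 spans chrM:4470-5511. The 3 cytochrome c oxidase genes lie at chrM:5904-7445 (MT-CO1), chrM:7586-8269 (MT-CO2) and chrM:9207-9990 (MT-CO3). MT-ATP6 at chrM:8527-9207 shares its last annotated base with the first of MT-CO3. MT-ND3 follows at chrM:10059-10404, MT-ND4 at chrM:10760-12137, MT-ND5 at chrM:12337-14148 and MT-CYB at chrM:14747-15887. Annotated lengths ran from 346 bases (MT-ND3) to 1812 bases (MT-ND5).

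The 3′ ends are shown because both platforms capture poly(A) tails. Where the tail of each mRNA begins was not examined, so an annotated end need not lie next to the captured tail. Each line gives the last 30 annotated bases, 5′ to 3′ on the + strand of hg38 chrM. Capitals mark the last codon, or the bases left over after the last whole codon.
MT-ND1: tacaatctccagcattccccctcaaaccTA
MT-ND2: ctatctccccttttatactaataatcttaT
MT-CO1: ttcgaagaacccgtatacataaaatctAGA
MT-CO2: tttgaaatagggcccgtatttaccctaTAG
MT-ATP6: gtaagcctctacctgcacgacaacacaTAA
MT-CO3: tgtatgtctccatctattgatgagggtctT
MT-ND3: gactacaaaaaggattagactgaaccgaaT
MT-ND4: accccgacatcattaccgggttttcctctT
MT-ND5: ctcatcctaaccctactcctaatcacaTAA
MT-CYB: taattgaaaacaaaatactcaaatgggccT

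Of the 10 members, 4 ended on a whole codon and 6 left 1 or 2 bases over, MT-ND1 with 2 and MT-CO3, MT-CYB, MT-ND2, MT-ND3 and MT-ND4 with 1. The longest run of A within a member was 8 bases, in MT-ND5, and 7 bases in MT-CO1, MT-ND2 and MT-ND4. MT-CYB had no run of A longer than 4 bases.

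A pair of overlaps is shown next because reads across them could be counted for either gene. In each line the capitals are the bases that lie in both genes, 46 for the first pair and 7 for the second.
MT-ATP8/MT-ATP6, chrM:8515-8584: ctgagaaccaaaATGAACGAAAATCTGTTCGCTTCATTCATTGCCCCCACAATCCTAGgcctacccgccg
MT-ND4L/MT-ND4, chrM:10748-10778: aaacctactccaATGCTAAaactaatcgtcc

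Barcodes were ranked by total counts, the labelled number of cells was taken from the top, and those with at least 90% of their counts on human transcripts were called human cells. This left 1006 human cells at 30 cycles and 911 at 35 cycles of 10X, and 251, 166 and 165 at 25, 30 and 35 cycles of Drop-seq. They held 161961, 199308, 115245, 67144 and 93499 human counts, in that order, with medians of 117, 171, 256, 237.5 and 344 human counts per human cell. Barcodes in all files were 10 bases long. The libraries of a platform shared cell barcodes: 1541 of 2000 between the 10X libraries, 446 of 500 between the 30- and 35-cycle Drop-seq libraries, and 454 of the 500 cells at 30 cycles with the 1000 at 25 cycles. The libraries of a platform are therefore not independent samples. The labels name ligation kit LSK-109 for the 25-cycle library and LSK-114 for the others, so that kit and cycle number cannot be told apart there.

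The files also differed in the smallest value they held for a transcript in a cell, which was 2 in both 10X matrices, 1 at 25 cycles of Drop-seq and 3 at 30 and 35 cycles. Whether these minima were set by the authors' filtering was not stated in the sources used here. The step matters for the mitochondrial genes and is followed through each comparison.

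The labelled cell line was checked against marker genes of plasma cells and T cells, and the Drop-seq libraries went against their label. In the 10X human cells all 10 plasma cell markers had counts, between 0.427% and 0.665% of human counts in sum, and all 12 T cell markers, including CD3D, CD3E, CD3G and TRAC, were at 0. In the Drop-seq human cells 1 plasma cell marker, MZB1, had counts (5 to 15), SDC1, IRF4, PRDM1, XBP1 and JCHAIN were at 0, and 6 to 10 of 12 T cell markers had counts, between 0.306% and 0.356% of human counts in sum. CD3G, a chain of the T cell receptor complex, had 102, 73 and 69 counts there, and CD1E had 76, 82 and 119. The human cells of the Drop-seq libraries are therefore named here by library alone. Platform and the identity of the human cells cannot be told apart in any comparison of Drop-seq with 10X.

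The 10 genes took a share of the human counts that was several times higher in the 10X than in the Drop-seq libraries. In the 10X human cells it was 8.44% at 30 cycles (13662 counts, exact 95% interval 8.30 to 8.57%) and 10.4% at 35 cycles (20767 counts, 10.3 to 10.6%). In the Drop-seq human cells it was 2.33% at 25 cycles (2680 counts, 2.24 to 2.41%), 2.38% at 30 cycles (1595 counts, 2.26 to 2.49%) and 2.26% at 35 cycles (2116 counts, 2.17 to 2.36%). The 3 Drop-seq intervals overlapped one another, and neither 10X interval came near them. All intervals in the text cover counting error only, since no group had a replicate library. They treat each count as independent and leave out the spread from cell to cell.

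**Figure D1:**
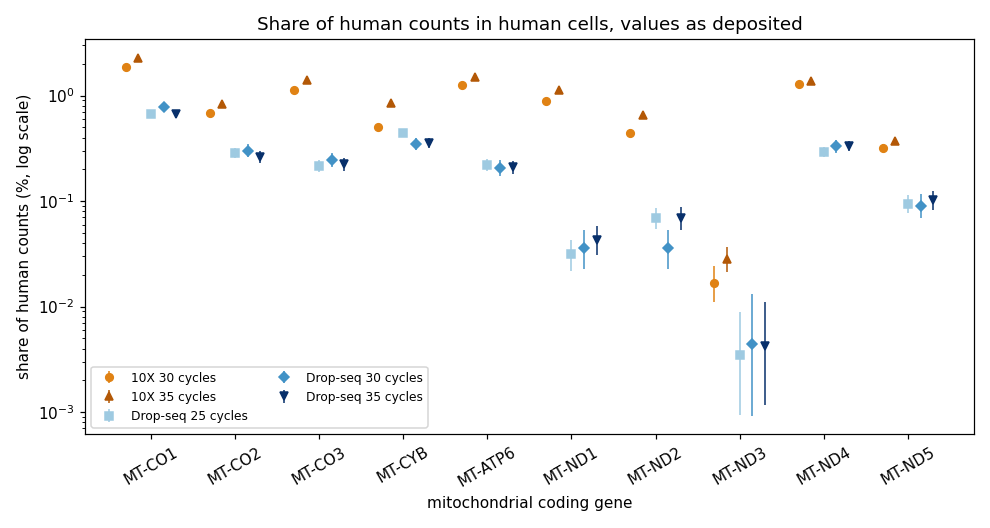
Share of human counts in human cells (%, log scale) for each of the 10 mitochondrial coding genes, with a point for each of the 5 libraries and exact 95% intervals that cover counting error only. The 10X points (orange and brown) lie above the Drop-seq points (blue) for every gene, and MT-ND1 shows the widest gap, from 0.895% at 30 cycles of 10X to 0.0357% at 30 cycles of Drop-seq.

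These shares moved with the smallest value kept, and far more in the 10X than in the Drop-seq data. When only values of 3 or more were kept, the 10X shares were 20.4% (20.0 to 20.7%) at 30 cycles and 20.3% (20.0 to 20.5%) at 35 cycles. The human counts left at 30 cycles fell from 161961 to 48043, because 81.3% of the 10X entries for human transcripts held the value 2 there, against 45.3% of the entries for members. At 35 cycles of 10X 74.3% of all human entries and 33.8% of member entries held the value 2. In the 25-cycle Drop-seq library, the single one with values of 1, the share rose from 2.33% with all values to 2.59% with values of 2 or more and 2.83% with values of 3 or more. The share at 30 cycles of Drop-seq rose from 2.38% to 2.75% between a smallest value of 3 and of 5, and that at 35 cycles from 2.26% to 2.66%. With values of 4 or more the order of the 10X libraries was turned round, with 29.2% at 30 and 25.5% at 35 cycles, and with values of 5 or more the shares were 34.6% and 27.0%. Raising the minimum raised the members' share at each step in all 5 libraries, so a share is read here only together with its minimum.

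**Figure D2:**
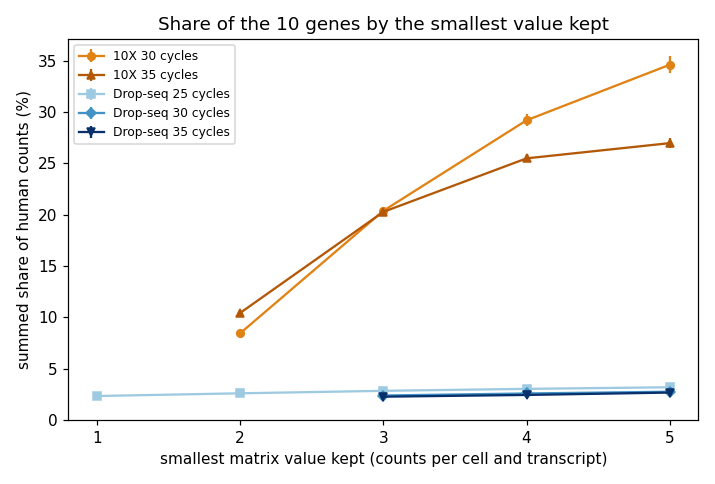
Summed share of the 10 genes in human counts (%) against the smallest matrix value kept, with exact 95% intervals that cover counting error only. The 10X lines start at 8.44% and 10.4% with values of 2 or more and meet at 20.4% and 20.3% with values of 3 or more, above which 30 cycles lies higher, while the Drop-seq lines stay between 2.26% and 3.18%.

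The cytochrome c oxidase genes were the largest group by counts. MT-CO1 encodes the catalytic subunit of complex IV, which passes electrons to oxygen. It had 3031 and 4516 counts at 30 and 35 cycles of 10X, and 773, 521 and 620 at 25, 30 and 35 cycles of Drop-seq. That was 1.87% and 2.27% of human counts in 10X and 0.671%, 0.776% and 0.663% in Drop-seq. MT-CO1 was the most abundant human transcript in every library but one: it ranked 5 at 35 cycles of 10X, behind immunoglobulin lambda transcripts such as IGLL5.

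MT-CO2 carries the copper site that accepts electrons from cytochrome c. It had 1101 and 1656 counts in 10X and 328, 202 and 244 in Drop-seq, or 0.680% and 0.831% against 0.285%, 0.301% and 0.261% of human counts. MT-CO3, a structural core subunit of the same complex, had 1850 and 2823 counts in 10X and 247, 166 and 209 in Drop-seq. Its shares were 1.14% and 1.42% in 10X and 0.214%, 0.247% and 0.224% in Drop-seq. MT-CO2 and MT-CO3 thus changed places between platforms, with MT-CO3 above MT-CO2 in counts in both 10X libraries and below it in the 3 Drop-seq libraries. The exact intervals of their shares overlapped at 30 cycles (0.261 to 0.345% and 0.211 to 0.288%) and 35 cycles (0.229 to 0.296% and 0.194 to 0.256%) of Drop-seq. Together the 3 genes made up 43.8% and 43.3% of the members' counts in 10X and 50.3%, 55.7% and 50.7% in Drop-seq.

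MT-CYB encodes cytochrome b, the mitochondrially encoded subunit of complex III, and it stood out in its ratio to the others. It had 816 and 1683 counts in 10X and 511, 233 and 331 in Drop-seq, which was 0.504% and 0.844% against 0.443%, 0.347% and 0.354% of human counts. Among the members' counts MT-CYB was 5.97% (5.58 to 6.38%) at 30 cycles and 8.10% (7.74 to 8.48%) at 35 cycles of 10X. In Drop-seq it was 19.1% (17.6 to 20.6%), 14.6% (12.9 to 16.4%) and 15.6% (14.1 to 17.3%). It ranked 7 and 6 by counts among the 10 genes in 10X and 2 in each Drop-seq library.

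MT-ATP6 encodes the subunit of ATP synthase that lets protons through the membrane. It had 2062 and 2994 counts in 10X and 255, 139 and 196 in Drop-seq, equal to 1.27% and 1.502% against 0.221%, 0.207% and 0.210% of human counts. Among the members' counts it fell from 15.1% and 14.4% in 10X to 9.51%, 8.71% and 9.26% in Drop-seq, with no overlap of the exact intervals.

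The 5 complex I genes encode membrane-arm subunits of NADH dehydrogenase, the entry point of electrons from NADH, and they held the widest spread. MT-ND4, part of the proton-pumping arm, was the highest of them with 2088 and 2762 counts in 10X and 338, 222 and 312 in Drop-seq. MT-ND5, at the far end of that arm, had 513 and 733 counts in 10X and 109, 61 and 96 in Drop-seq. MT-ND2 had 724 and 1311 counts in 10X and 79, 24 and 64 in Drop-seq. All 3 were lower in share in every Drop-seq library than in either 10X library.

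MT-ND1, which helps form the ubiquinone-binding site of complex I, differed most between platforms. It had 1450 and 2233 counts in 10X, 0.895% and 1.12% of human counts, and 36, 24 and 40 counts in Drop-seq, 0.0312%, 0.0357% and 0.0428%. It was found in 461 of 1006 and 596 of 911 human cells of 10X, and in 17 of 251, 6 of 166 and 9 of 165 human cells of Drop-seq. With each cell thinned to 100 counts, MT-ND1 was left in 3 of 251 human cells (1.20%) and 3 of 590 mouse cells (0.508%) at 25 cycles of Drop-seq, so that at this depth it was not above the background of the mouse cells beyond counting error. Unthinned, it was found in 6.77% of the human and 1.86% of the mouse cells of that library. The median depths before thinning were 271 counts in the human and 282.5 in the mouse cells. At 30 and 35 cycles of Drop-seq the thinned cells with MT-ND1 were 2 of 166 and 3 of 165 human cells, and 0 of 291 and 0 of 309 mouse cells. Unthinned, 0 of 291 and 1 of 309 mouse cells had it there.

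MT-ND3, the shortest member, was the lowest in every library. It had 27 and 56 counts in 10X and 4, 3 and 4 in Drop-seq, so no ratio of it is given in any comparison.

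Set per kilobase of annotated length, the order of the members differed between platforms. In both 10X libraries MT-ATP6 led with 1.87% and 2.21% of human counts per kilobase, ahead of MT-CO3 (1.46% and 1.81%), MT-CO1 (1.21% and 1.47%) and MT-CO2 (0.994% and 1.21%). In the 3 Drop-seq libraries MT-CO1 led with 0.435%, 0.503% and 0.430% per kilobase, and MT-CO2 was next with 0.416%, 0.440% and 0.382%. The intervals of the ratio of these leading neighbours left out 1 in 10X and held 1 in Drop-seq, so that the order of MT-CO1 and MT-CO2 is not resolved there. In Drop-seq the ratio per kilobase of MT-ND4 to the next gene down was 3.24, 4.79 and 3.69 at 25, 30 and 35 cycles. MT-ND5 was next to last per kilobase in 10X, at 0.175% and 0.203%, and MT-ND3 was last in all 5 libraries. A count here is of molecules captured at the poly(A) tail, so a value per kilobase does not correct for how many reads a longer transcript gives.

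In the 10X pair the question was how the members moved from 30 to 35 cycles. As deposited, their summed share rose from 8.44% to 10.4%, a log2 ratio of 0.30 (0.27 to 0.34), while the median over the 381 human transcripts with at least 100 counts was 0.06. All 9 members with enough counts had a ratio above 0, as did 51.7% of all tested transcripts. MT-CYB (0.74, 0.62 to 0.87) and MT-ND2 (0.56, 0.43 to 0.69) had the highest log2 ratios and MT-ND4 the lowest (0.10, 0.02 to 0.19). None of the 9 passed 2-fold, against 28.1% of all tested transcripts.

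With values of 3 or more in both libraries this rise was gone: the summed share was 20.4% at 30 and 20.3% at 35 cycles, a log2 ratio of −0.01 (−0.04 to 0.03). Of the 9 members, 5 were then above 0 and 4 below, and 54.9% of the 102 transcripts tested were above 0. MT-CYB kept a log2 ratio of 0.70 (0.53 to 0.86) and MT-ND2 one of 0.29 (0.13 to 0.46). MT-ND4 turned to −0.25 (−0.34 to −0.16), and MT-CO1 to −0.05 (−0.12 to 0.02). The change in MT-CYB relative to the other members was therefore seen with either minimum, and the rise of the summed members with the deposited one and not with 3 or more.

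In the Drop-seq pair at 30 and 35 cycles, which have the same smallest value, the summed share went from 2.38% to 2.26%, a log2 ratio of −0.07 (−0.16 to 0.02) against a median of −0.11 over 243 tested transcripts. None of the 7 members tested passed 2-fold, and 0% of all tested transcripts did. MT-CO1 had the lowest log2 ratio, −0.23 (−0.40 to −0.06), and it was the single tested member whose interval left out 0. That interval does not take in the spread from cell to cell, so no change in MT-CO1 is read from it. MT-CYB stood at 0.03 (−0.22 to 0.28), MT-ATP6 at 0.02 (−0.30 to 0.34) and MT-ND4 at 0.01 (−0.24 to 0.27). MT-ND2 was below the minimum of 100 counts, with 24 counts at 30 and 64 at 35 cycles.

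Between 25 and 30 cycles of Drop-seq, with values of 3 or more in both, the summed share went from 2.83% to 2.38%, a log2 ratio of −0.25 (−0.35 to −0.16), against a median of −0.10 over 228 transcripts. None of the 7 members tested passed 2-fold, against 6.14% of all tested transcripts. MT-CYB had the lowest log2 ratio, −0.71 (−0.95 to −0.48), from 458 to 233 counts. With all deposited values the summed log2 ratio was 0.03 (−0.06 to 0.12), and among cells of at least 95% human counts it was −0.02 with values of 3 or more. With all deposited values MT-ND2, with 79 and 24 counts then over the minimum, was lowest at −0.92 (−1.66 to −0.26), and MT-CYB stood at −0.35 (−0.58 to −0.13), while MT-CO1 turned from −0.18 (−0.35 to −0.02) to 0.21 (0.05 to 0.37).

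**Figure D3:**
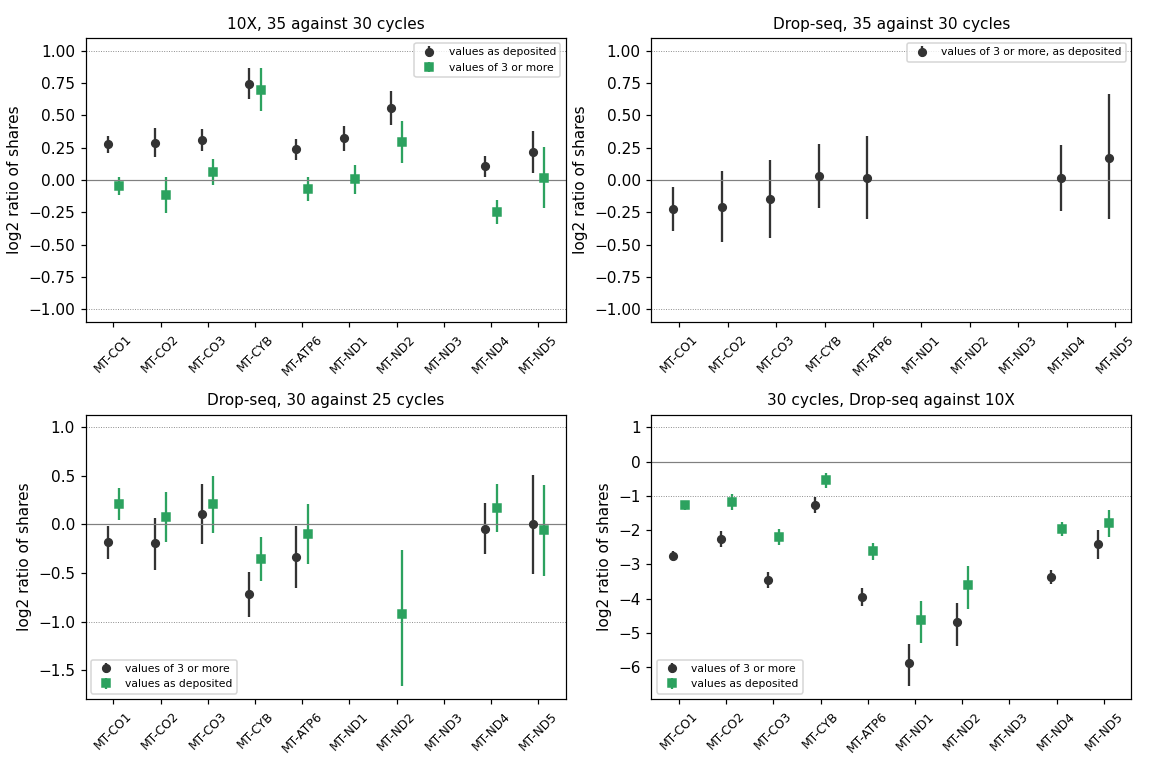
Log2 ratio of each gene's share of human counts in the 4 comparisons, with exact 95% intervals that cover counting error only, for values as deposited and values of 3 or more; dotted lines mark 2-fold, and a gene is shown where both libraries together held at least 100 counts. In the 10X pair MT-CYB lies at 0.74 and 0.70 under both minima while MT-ND4 moves from 0.10 to −0.25, and every plotted gene is lower in Drop-seq than in 10X at 30 cycles.

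Between the platforms at 30 cycles, all 9 members with enough counts were at least 2-fold lower in Drop-seq with values of 3 or more in both, as were 42.3% of the 142 transcripts tested. The summed log2 ratio was −3.10 (−3.18 to −3.02), while the median over all tested transcripts was 1.65. MT-ND1 was lowest at −5.87 (−6.55 to −5.32), then MT-ND2 at −4.70 (−5.38 to −4.13) and MT-ATP6 at −3.94 (−4.21 to −3.69). The minimum of 100 counts was set on both libraries together, so a gene low in Drop-seq could pass it through 10X. MT-ND1 (1026 counts in 10X, 24 in Drop-seq), MT-ND2 (454 and 24) and MT-ND5 (233 and 61) passed it on their 10X counts alone. The other tested members had more than 100 counts in each library. MT-CYB differed least, at −1.27 (−1.51 to −1.03), and MT-CO2 at −2.25 (−2.49 to −2.03) and MT-ND5 at −2.41 (−2.848 to −2.004) came next. As deposited, the summed log2 ratio was −1.83 (−1.90 to −1.75), MT-ND1 stood at −4.62 and MT-CYB at −0.54, and 8 of the 9 were at least 2-fold lower, against 50.7% of the 280 transcripts tested, whose median was −1.12. The members were thus lower in the Drop-seq human cells with either minimum, by an amount the minimum set, and platform, human cells and counting workflow cannot be told apart here.

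As deposited, with smallest values of 2 in 10X and 1 or 3 in Drop-seq, the nuclear-encoded subunits of the same complexes went the other way between platforms. The median log2 ratio of Drop-seq to 10X over all tested transcripts at 30 cycles was −1.12 as deposited and 1.65 with values of 3 or more. Summed over 47 nuclear genes of complexes I, III, IV and ATP synthase, these subunits had 393 and 422 counts in the 10X human cells, 0.243% and 0.212% of human counts. In the Drop-seq human cells they had 2183, 1196 and 1653 counts, 1.89%, 1.78% and 1.77%. The 10 members therefore held 34.8 (31.4 to 38.5) and 49.2 (44.7 to 54.3) counts for each nuclear count in 10X, and 1.23 (1.16 to 1.30), 1.33 (1.24 to 1.44) and 1.28 (1.20 to 1.37) in Drop-seq. With values of 3 or more, 9 and 52 nuclear counts were left in the 10X libraries, too few for a ratio to be read.

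Within that group, the 11 complex IV genes had 125 and 119 counts in 10X and 728, 447 and 644 in Drop-seq, and the 3 with the most counts summed over the 5 libraries were the structural subunits COX7A2 (16 and 12 against 175, 90 and 201), COX4I1 (73 and 79 against 131, 69 and 81) and COX6C (0 and 0 against 172, 120 and 131). The leading gene was COX4I1 in both 10X libraries. The 15 ATP synthase genes had 152 and 125 counts in 10X and 830, 388 and 481 in Drop-seq, with ATP5F1A, the alpha subunit of the catalytic head, first in the sum over libraries (14 and 0 against 195, 106 and 163) but not in 10X, where ATP5MC2 had 32 and 34 counts. The 12 complex I genes had 68 and 118 counts in 10X and 284, 173 and 220 in Drop-seq, with NDUFA13 first in the sum over libraries (4 and 8 against 97, 87 and 91). NDUFC2 went against the list, with 22 and 35 counts in 10X and 3, 0 and 4 in Drop-seq. The 9 complex III genes had 48 and 60 counts against 341, 188 and 308, and UQCRQ, a small subunit and first in the sum over libraries, was at 0 in both 10X libraries and had 153, 64 and 131 counts in Drop-seq. UQCRC2, a core subunit, went against the list, with 18 and 9 counts in 10X and 1, 0 and 0 in Drop-seq. ATP5MC2, NDUFC2 and UQCRC2 were named after their values were seen. No transcript of these lists reached 100 counts in the 10X pair or between platforms. In each of the Drop-seq pairs 1 complex IV transcript did, with log2 ratios of −0.18 from 30 to 35 cycles and 0.47 from 25 to 30 cycles, and it was not past 2-fold. The 11 genes of mitochondrial RNA synthesis and upkeep had 76 and 69 counts in 10X and 106, 21 and 29 in Drop-seq, with SLIRP, a stabiliser of mitochondrial mRNA, at 0 and 2 counts against 105, 18 and 24.

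The remaining mitochondrial coding genes were also lower in Drop-seq. MT-ATP8, the small ATP synthase subunit, had 1573 and 2479 counts in 10X and 107, 57 and 80 in Drop-seq. MT-ND4L had 1428 and 1999 against 92, 53 and 65 counts, and MT-ND6, encoded on the other strand, 674 and 1062 against 72, 26 and 54. None of those with enough counts, 3 in the 10X pair and 2 in each Drop-seq pair, passed 2-fold between cycle numbers, and all 3 were past 2-fold lower in Drop-seq than in 10X at 30 cycles, with log2 ratios from −4.75 to −4.38. In that comparison all 3 passed the minimum of 100 counts over both libraries on their 10X counts alone. The 12S and 16S ribosomal RNAs, MT-RNR1 and MT-RNR2, had no row in any of the matrices.

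The genes that overlap a member mostly had counts in the same cells as that member. MT-ATP8 had 0.763 and 0.828 counts for each count of MT-ATP6 in 10X, and 0.420, 0.410 and 0.408 in Drop-seq. At 30 cycles of 10X MT-ATP8 was found in 492 human cells, 489 of which also had MT-ATP6, and in 317 of those the values of both genes were equal. MT-ND4L was found in 437 cells, all of which also had MT-ND4, and 272 of these had equal values. Among pairs with no shared bases, MT-CO1 and MT-CO3 occurred together in 513 cells there and had equal values in 139 (27.1%), and MT-ND5 and MT-ND6, which lie on opposite strands, in 161 cells with equal values in 89 (55.3%). Equal values were thus also frequent in this pair, which shares no annotated bases. The 2 genes adjoin, however, with MT-ND5 ending at chrM:14148 and MT-ND6 starting at chrM:14149. At 30 cycles of 10X 45.3% of the entries for members held 2, the smallest value, and its part in the equal values was not tested. At 35 cycles of Drop-seq MT-ATP8 and MT-ATP6 had equal values in 2 of 8 cells. Whether single molecules were counted for both genes of an overlapping or adjoining pair was not tested. The counts of MT-ATP6, MT-ND4 and MT-ND5 are uncertain to that extent.

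Nuclear copies of mitochondrial genes also took counts. MTATP6P1 on chromosome 1 (chr1:633696-634376, hg38) matched MT-ATP6 at 671 of 681 aligned bases, 98.5%, and had 1627 and 2460 counts in 10X and 124, 46 and 83 in Drop-seq. Each cell with MTATP6P1 also had MT-ATP6 in all 5 libraries. The values of both were equal in 336 of 522 such cells at 30 cycles of 10X and in 2 of 16 at 35 cycles of Drop-seq. MTCO1P12 (chr1:631074-632616) matched MT-CO1 at 1522 of 1543 aligned bases, 98.6%, and had 253 and 648 counts in 10X and 201, 171 and 213 in Drop-seq. It stood at 0.0835 and 0.143 counts for each MT-CO1 count in 10X and at 0.260, 0.328 and 0.344 in Drop-seq. MTND1P23, the third copy in the sum over the 5 libraries, had 53 and 226 counts in 10X and 2, 0 and 0 in Drop-seq. No identity to MT-ND1 was computed for MTND1P23. Long reads with errors can be placed on either copy, so the values of MT-ATP6, MT-CO1 and MT-ND1 are uncertain by an amount that was not tested.

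The share of the 10 genes varied widely from cell to cell. Its median over human cells was 8.03% at 30 cycles of 10X (quartiles 5.27 and 11.99%) and 10.4% at 35 cycles (7.64 and 13.9%). In Drop-seq it was 1.51% (0.615 and 3.05%), 2.15% (0.127 and 3.58%) and 1.96% (0.898 and 3.54%) at 25, 30 and 35 cycles. The highest cell had 39.7% at 30 cycles of 10X and 20.7% at 30 cycles of Drop-seq. The variance of the counts over cells was 5.50 and 5.13 times that of binomial sampling at the pooled share in 10X, and 8.41, 8.65 and 9.05 times in Drop-seq. The exact intervals of shares and ratios of counts assume binomial sampling, so they are narrower than this spread over cells would give.

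**Figure D4:**
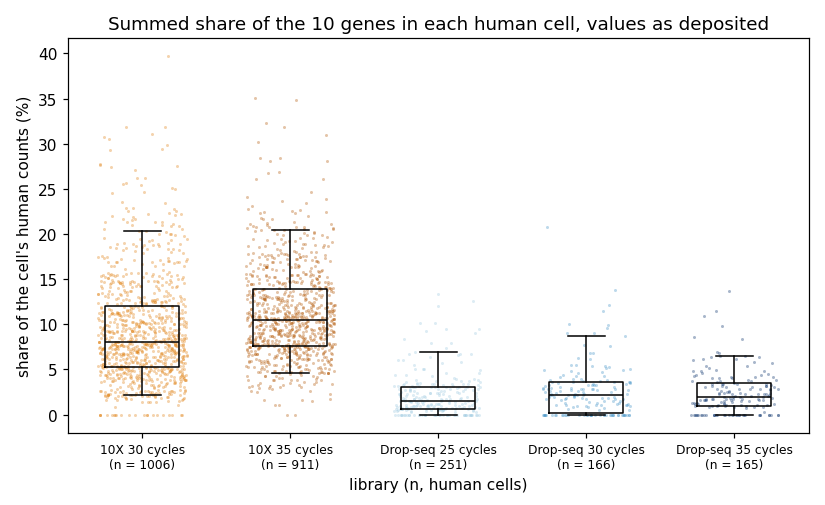
Summed share of the 10 genes in the human counts of each human cell (%), values as deposited, with a point per cell; boxes give the quartiles and median, and whiskers the 5th and 95th percentiles. The 10X cells have medians of 8.03% and 10.4%, and the Drop-seq cells have medians of 1.51%, 2.15% and 1.96% with many cells at 0.

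No count of any member was found in 21 of 1006 and 2 of 911 human cells of 10X, and in 42 of 251, 42 of 166 and 35 of 165 human cells of Drop-seq. These are values as deposited, with smallest values of 2 in 10X and 1, 3 and 3 in Drop-seq. With values of 3 or more, among cells with human counts left, none was found in 164 of 996 and 33 of 911 cells of 10X. At 25 cycles of Drop-seq it was then 122 of 250. With each cell thinned to 100 counts, at least 1 member was found in 97.7% and 99.5% of human cells in 10X, and in 65.7%, 67.5% and 72.1% in Drop-seq. The 348 human cells under 100 counts at 30 cycles of 10X were left out of that step, and none elsewhere. Unthinned, over the same cells, the shares were 98.5% and 99.8% in 10X and 83.3%, 74.7% and 78.8% in Drop-seq. In the thinned mouse cells, which should lack human transcripts, the share was 4.98% and 2.84% in 10X and 10.2%, 2.41% and 3.88% in Drop-seq, so the human cells lay far above that background on both platforms. Thinned after keeping values of 3 or more, the shares at 25 cycles of Drop-seq were 58.1% of human and 1.39% of mouse cells. In 10X 97 and 253 human cells then held 100 counts, and 99.0% and 100% of them had a member.

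MT-CO1 reached the most cells: after thinning, with values as deposited, it was found in 78.3% and 89.6% of human cells in 10X and in 25.1%, 32.5% and 37.6% in Drop-seq. MT-CYB was found in 28.3% and 48.2% in 10X and in 17.5%, 16.3% and 20.6% in Drop-seq. The gap between platforms in cells reached was thus smaller for MT-CYB than for MT-CO1, as it was in the summed counts. In the thinned mouse cells MT-CO1 was found in 0.687% to 1.69% and MT-CYB in up to 3.22%, the latter at 25 cycles of Drop-seq.

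The deeper cells of the 10X libraries had a lower share than the shallower ones, at medians of 7.63% against 8.70% at 30 cycles and 9.80% against 11.2% at 35 cycles. In Drop-seq the medians of deeper and shallower cells were 1.93% and 2.23% at 30 cycles, 1.96% and 1.98% at 35 cycles, and in the opposite direction, 1.88% and 1.18%, at 25 cycles. With values of 3 or more the 10X medians were 19.9% and 21.1% at 30 cycles and turned to 20.8% and 19.6% at 35 cycles. The part of depth in these differences was not tested.

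In the barcodes that were human cells in both libraries of a pair, the cell-to-cell differences were partly kept. In 722 such 10X barcodes the median share was 8.39% at 30 and 10.6% at 35 cycles, and it was higher at 35 cycles in 501 and lower in 220. The shares at 30 and 35 cycles had a Pearson r of 0.64 and a Spearman rho of 0.62 over these barcodes, given as a description, since the barcodes share library, depth and starting cDNA. With values of 3 or more, over 719 barcodes, it was higher in 386 and lower in 325, with a pooled log2 ratio of 0.03 (−0.01 to 0.07), and r was 0.39 and rho 0.45.

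In 145 Drop-seq barcodes the share was higher at 35 cycles in 56, lower in 64 and equal in 25, all 25 of them with no member count in either library. Here r was 0.84 and rho 0.82. Between 25 and 30 cycles, over 135 barcodes with values of 3 or more, the share was higher at 30 cycles in 43 and lower in 66, with r of 0.65 and rho of 0.70. The pooled log2 ratio within shared barcodes was −0.04 (−0.13 to 0.06) from 30 to 35 cycles and −0.33 (−0.43 to −0.24) from 25 to 30 cycles. With all deposited values the latter was −0.09 (−0.19 to 0.01), with 56 barcodes higher and 67 lower at 30 cycles.

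**Figure D5:**
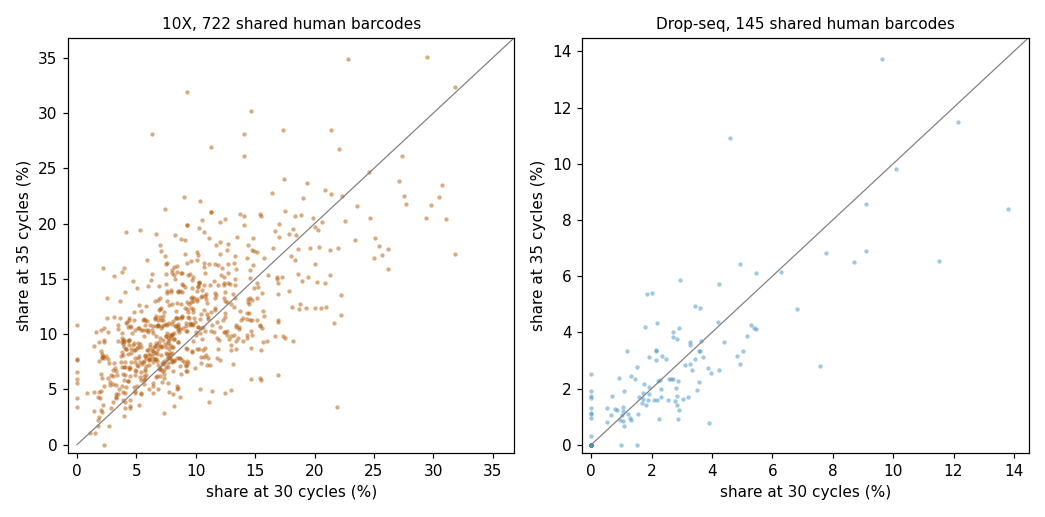
Summed share of the 10 genes in human counts at 35 cycles against 30 cycles (%), with a point for each barcode that was a human cell in both libraries and a line where both shares are equal. In 10X 501 of 722 barcodes lie above the line, and in Drop-seq 56 of 145 do.

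Counts of the human members also appeared in barcodes called mouse cells. In 10X there were 93 and 97 such counts, 4.31% and 3.01% of the human counts in mouse cells, below the share in human cells. In Drop-seq there were 516, 136 and 348, which was 3.35%, 6.02% and 8.02% of the human counts in mouse cells and above the share in human cells, 2.33%, 2.38% and 2.26%. MT-ND4 led in the Drop-seq mouse cells, with 141, 43 and 103 counts, ahead of MT-CYB with 111, 34 and 99. Whether mouse mitochondrial reads were placed on human genes was not tested. In the barcodes outside the cells the members' share was 11.3% and 13.9% in 10X and 2.09%, 2.11% and 2.09% in Drop-seq, so that in 10X it was higher there than in the human cells.

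Over the 5 libraries, with values of 3 or more, few other genes had enough counts for their pattern across libraries to be compared with that of the members. Centring takes out the level of a gene, so a small distance means a like pattern and not a like level. Of 18 genes with at least 50 counts in each library, the nearest to the summed members by Euclidean distance of centred log2 CPM (counts scaled to an equal library total) were RPL6 (0.52), RPL29 (0.98), ACTB (1.11), EEF1A1 (1.52) and MT-ATP8 (1.78). Among the members with enough counts MT-ND4 (0.337) and MT-CO1 (0.343) were closest to the sum and MT-CYB (1.92) was farthest. MT-ND1, MT-ND2 and MT-ND3 fell under 50 counts in Drop-seq libraries and were not compared. Each member is also a part of the sum it was compared with. The most abundant human transcripts outside the mitochondrial genome were those of IGLL5, IGLV2-14 and IGLC1 in both 10X libraries, at 1.42% to 2.70% of human counts, and of RPL41, RPS19, RPS14, TMSB4X and RPLP1 in Drop-seq, at 0.256% to 0.375%.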

How the data were processed

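Nanopore UMI counts were analysed in 5 of 6 samples; the sixth held read numbers alone and was not used here. The authors called bases with Guppy, mapped reads to hg38 and mm10 transcripts with minimap2, and counted with UMI-tools (10X) or UMI-tools or a homotrimer script (Drop-seq; which was not given in the sources used here). The deposited counts are whole numbers per barcode and transcript, not normalized, and a transcript was human where its identifier began with ENST; 91.9% of 46484 identifiers matched GENCODE release 44, used for symbols, positions and sequence. Counts were summed over human cells. Shares carry exact Clopper-Pearson and ratios exact conditional binomial intervals (95%), which cover counting error only. With 1 library per group there was no test. Ratios across transcripts used human CPM, a pseudocount of 0.5, a minimum of 100 counts over both libraries and a 2-fold rule, with values of 3 or more wherever libraries differed in their minimum, apart from the 10X pair. Thinning drew 100 counts per cell without replacement. Doublets were not called; barcodes of mixed species were left out. All 10 members were named; other lists were given as counts with up to 3 genes, those with the most counts summed over the 5 libraries. The members and lists were chosen with earlier results of these data known. The ratio step was tested on simulated data. Python 3.11.15, numpy 2.4.6, pandas 2.3.3 and scipy 1.17.1 were used.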

Additional observations from a re-analysis of the deposited data

Results flagged for a closer look

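From 30 to 35 cycles the summed members had log2 ratios of opposite sign on the 2 platforms, 0.30 (0.27 to 0.34) in 10X and −0.070 (−0.16 to 0.02) in Drop-seq. The Drop-seq interval held 0, and the Drop-seq ratio turned to 0.042 with median-of-ratios scaling. Opposite signs were also seen for MT-CO1 (0.28 in 10X, −0.23 in Drop-seq), MT-CO2 (0.29 and −0.21) and MT-CO3 (0.31 and −0.15), the 3 complex IV genes. Their Drop-seq intervals, which do not take in the spread from cell to cell, left out 0 for MT-CO1 (−0.40 to −0.06). They held 0 for MT-CO2 (−0.48 to 0.07) and MT-CO3 (−0.45 to 0.16). The difference between platforms was not tested, each platform having 1 library per cycle number. The 10X ratios are those of the deposited values, whose minimum was 2; with values of 3 or more in 10X the summed ratio was −0.01, MT-CO1 stood at −0.05, MT-CO2 at −0.12 and MT-CO3 at 0.06.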

How the results depend on the processing

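With all barcodes of 10 or more counts as cells, the members' share was 9.42% and 11.6% at 30 and 35 cycles of 10X and 2.03%, 1.96% and 1.93% at 25, 30 and 35 cycles of Drop-seq. With values of 3 or more it was 20.4% and 20.3% in 10X and 2.83% at 25 cycles. With barcodes of at least 100 counts it was 8.04% and 10.6% in 10X, without immunoglobulin counts 9.13% and 11.9%, and with 50% of the labelled cells 7.78% and 9.63% in 10X and 2.19% at 30 cycles of Drop-seq. At 25 cycles, cells of 95% purity gave 1.93% and all counts as the denominator 2.19%.

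The 10X log2 ratio of 35 to 30 cycles was 0.40 with barcodes of at least 100 counts, 0.39 without immunoglobulin counts, 0.42 with the deeper library thinned and 0.25 with median-of-ratios scaling, and it turned to −0.0073 with values of 3 or more. The Drop-seq ratio of 35 to 30 cycles turned to 0.042 with median-of-ratios scaling. That of 30 to 25 cycles was −0.38 with 50% of the labelled cells, −0.021 at 95% purity and −0.16 with median-of-ratios scaling, and it turned to 0.031 with values as deposited. Between platforms the log2 ratio was −3.001 with barcodes of at least 100 counts, −2.997 with the deeper library thinned, −3.42 without immunoglobulin counts, −2.10 with median-of-ratios scaling and −1.83 with values as deposited. A minimum of 50 counts brought 1 member, MT-ND2, past 2-fold from 25 to 30 cycles. The causes were not tested. Values as deposited in the comparisons with Drop-seq and the steps of smallest value above 3 were alternatives chosen after seeing the data.

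No paired analysis was possible because each group was 1 library, with no replicate numbers to pair. Shared barcodes, which are cells and not replicates, were compared instead. The intervals hold counting error alone. MT-ND3 in every comparison, MT-ND1 between Drop-seq libraries, and MT-ND2 between them except from 25 to 30 cycles as deposited, had too few counts for a ratio.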
